A study of Mus musculus with 10 samples.

Results

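The 10 genes described here are Pparg, Cebpa, Cebpb, Cebpd, Zfp423, Klf15, Lpl, Cd36, Fabp4 and Plin2, transcription factors of fat cell formation together with genes of lipid uptake and storage. They were chosen by name, not by a threshold on their values, and taken by Ensembl identifier from the 40620 genes of the count table. RNA was sequenced from MC3T3-E1 cells, a mouse calvarial pre-osteoblast line, at 5 stages with 2 replicates each, named A and B. Subconfluent and confluent cells were kept in growth medium, αMEM with serum. Cells at 24h, 14d and 21d were kept in differentiation medium, the same base to which ascorbic acid (50 µg/ml) and β-glycerophosphate (10 mM) were added, and the labels name no glucocorticoid, insulin or PPAR agonist in it. The line is 1 subclone, nothing in the labels says that A and B were separate cultures, and p-values then measure the spread between these samples, which may be technical.

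Osteoblasts and adipocytes arise from common mesenchymal progenitors, and a pre-osteoblast line can be examined for the transcripts of the other fate. In adipogenesis the early factors C/EBPβ and C/EBPδ, products of Cebpb and Cebpd, come first and are followed by PPARγ and C/EBPα, which maintain each other and switch on the genes of the mature fat cell. Zfp423 marks committed preadipocytes and Klf15 is a Krüppel-like factor induced by glucocorticoids, whereas Lpl, Cd36, Fabp4 and Plin2 act in triglyceride hydrolysis outside the cell, fatty acid uptake, fatty acid binding and the coat of lipid droplets.

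Between 44736156 and 162939333 counts fell on genes per library. Levels are given as counts of reads and as RPKM, the authors' reads per kilobase of gene scaled to a fixed number of reads, the scale used to compare genes with each other. Changes are fitted log2 fold changes from edgeR's quasi-likelihood test on the counts of all 10 samples with Benjamini-Hochberg adjustment over 20808 genes. A gene was called at an adjusted p under 0.05 with more than 2-fold change. The 2 libraries at 24h stood apart from each other, with an SD of 0.558 for the log2 ratio of A to B over 16133 genes against 0.233 to 0.271 at the other stages. Tyrobp, a gene of myeloid cells, measured 179.1, 213.6 and 256.3 RPKM in confluent B, 14d B and 21d A and at most 0.842 in the other 7 libraries, a difference within each of these pairs, and whether A and B of a stage share their origin is not given in the sources used here. The index sequences of the 3 earlier stages differ from those of 14d and 21d, so index sequence and stage cannot be told apart in comparisons across that boundary. Some lane numbers recur on both sides of it, and whether libraries were prepared in batches is not given in the sources used here. From confluence onwards medium, density and time also changed together.

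All 10 are protein-coding in GENCODE vM21 on GRCm38. On the plus strand lie Pparg at chr6:115360951-115490399, Cebpa at chr7:35119293-35121928, Cebpb at chr2:167688915-167690418, Cebpd at chr16:15887286-15891031, Klf15 at chr6:90462576-90475238 and Lpl at chr8:68880491-68907448. On the minus strand lie Zfp423 at chr8:87661810-87959595, Cd36 at chr5:17781690-17888801, Fabp4 at chr3:10204088-10208576 and Plin2 at chr4:86648386-86670060.

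The 250 bases before the transcription start were read for those of the 10 genes with a RefSeq window, to set the start regions beside the transcript levels. Printed below are those of Klf15, Cebpb, Cebpa, Plin2 and the most downstream Pparg start. RefSeq windows on GRCm38.p6 were found for 7 of the 10 genes, Pparg, Cebpa, Cebpb, Zfp423, Klf15, Cd36 and Plin2, and none was used for Cebpd, Lpl and Fabp4. Capitals mark matches on either strand to the C/EBP site TTGCNNAA, the TATA box TATAAA, the CCAAT box CCAAT or the GC box core CCGCCC, and neighbouring or overlapping matches form a continuous run of capitals. The windows lie at chr6:90462326-90462575 on the plus strand for Klf15, chr2:167688665-167688914 on the plus strand for Cebpb, chr7:35119043-35119292 on the plus strand for Cebpa, chr6:115421816-115422065 on the plus strand for the most downstream of the 3 Pparg starts, and chr4:86670060-86670309 on the minus strand for Plin2.
Klf15: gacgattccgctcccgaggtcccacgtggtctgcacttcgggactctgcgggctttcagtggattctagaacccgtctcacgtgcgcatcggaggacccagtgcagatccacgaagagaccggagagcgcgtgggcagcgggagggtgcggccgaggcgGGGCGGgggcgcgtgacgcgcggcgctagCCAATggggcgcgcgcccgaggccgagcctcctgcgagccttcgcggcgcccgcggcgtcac
Cebpb: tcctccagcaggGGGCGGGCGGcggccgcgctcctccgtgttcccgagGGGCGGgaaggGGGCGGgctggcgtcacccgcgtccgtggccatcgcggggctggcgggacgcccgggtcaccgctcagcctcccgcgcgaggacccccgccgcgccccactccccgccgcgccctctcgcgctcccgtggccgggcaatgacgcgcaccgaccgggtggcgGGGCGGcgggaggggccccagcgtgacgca
Cebpa: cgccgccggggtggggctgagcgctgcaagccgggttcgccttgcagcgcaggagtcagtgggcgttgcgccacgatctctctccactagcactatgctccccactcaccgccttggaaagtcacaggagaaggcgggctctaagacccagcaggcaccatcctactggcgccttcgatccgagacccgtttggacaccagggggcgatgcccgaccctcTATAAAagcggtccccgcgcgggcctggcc
Pparg: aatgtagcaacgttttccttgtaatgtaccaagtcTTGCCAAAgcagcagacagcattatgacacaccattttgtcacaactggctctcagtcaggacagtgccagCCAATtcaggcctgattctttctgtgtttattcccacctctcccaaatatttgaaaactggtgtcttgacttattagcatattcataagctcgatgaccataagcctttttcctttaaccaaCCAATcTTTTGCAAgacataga
Plin2: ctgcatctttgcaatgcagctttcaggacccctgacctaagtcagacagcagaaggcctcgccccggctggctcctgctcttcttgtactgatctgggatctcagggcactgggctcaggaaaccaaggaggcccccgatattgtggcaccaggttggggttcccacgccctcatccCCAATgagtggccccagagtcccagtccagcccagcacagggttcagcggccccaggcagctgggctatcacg

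Among 32851 windows of the same length, 9.56% held the C/EBP site, 12.4% the TATA box, 32.7% the GC box core and 33.9% the CCAAT box. Of the 10 windows that belong to the 7 genes, the downstream Pparg window held 2 C/EBP sites, at 215 to 208 and at 16 to 9 bases before the start, and the upstream Zfp423 window held 1. The Klf15 window had 72.0% G and C, with a CCAAT box 62 to 58 bases before the start, and the Cebpb window had 81.6% G and C with 5 matches to the GC box core. The median over all windows was 52.4%. The Cebpa window held a TATA box 30 to 25 bases before its start and no match to the C/EBP site. The glucocorticoid half-site TGTTCT, the full glucocorticoid element, in which TGTTCT follows its reverse complement after 3 bases, the PPAR response element, made of 2 copies of AGGTCA with 1 base between them, the RUNX core TGTGGT and the cAMP response element TGACGTCA matched none of the 10 windows. These letters stood in 16.1%, 0.009%, 0.033%, 14.0% and 1.55% of all windows, and the half-site is contained in the full glucocorticoid element. A match is a string of letters and not a measured site.

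The 10 genes separated into those that were well expressed in pre-osteoblasts and those that were at or near the limit of detection. Cebpb, Cebpd and Plin2 exceeded 10 RPKM in every library, Cebpa and Zfp423 lay between 2.67 and 7.69 RPKM, and Klf15 reached a mean of 2.93 RPKM at 21d. Fabp4 stayed at or below 1.06 RPKM, Pparg below 0.2 RPKM and Lpl below 0.03 RPKM in every library, and Cd36 was represented by 1 read in the whole data set. The filter on low counts left 9 of the 10 in the test, all but Cd36. Klf15, Fabp4 and Pparg passed it through 4, 4 and 3 libraries of their higher stages, so that some difference between stages was built into their selection. In bulk RNA a change in level per cell and a change in the share of cells with the transcript cannot be told apart.

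**Figure D1:**
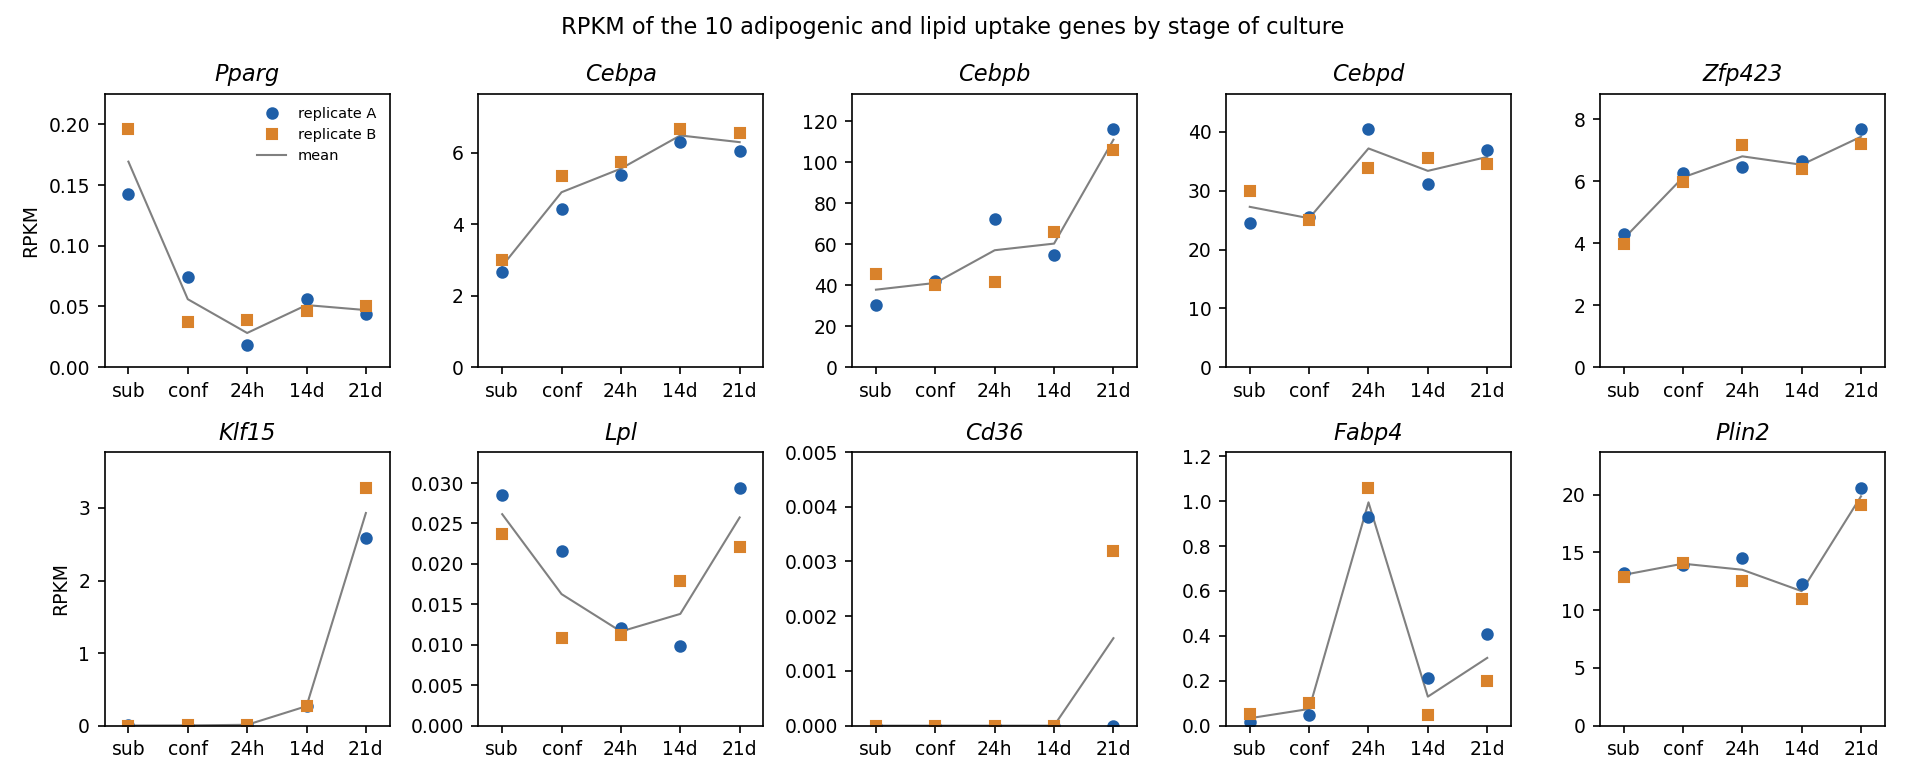
RPKM of each of the 10 genes (vertical axis, linear and starting at 0, with its own range in each panel) at the 5 stages (horizontal axis; sub, subconfluent, conf, confluent). Circles are replicate A, squares replicate B, and the line joins the means of n = 2; Klf15 stands at 2.58 and 3.28 RPKM at 21d, whereas the Lpl and Cd36 panels span less than 0.04 RPKM.

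Klf15, which encodes a glucocorticoid-inducible Krüppel-like factor acting in adipogenesis and amino acid metabolism, had the largest fitted change of the 9 tested genes at 21d against subconfluent cells. Its counts were 1 and 0 in subconfluent A and B, 0 and 2 in confluent, 3 and 2 at 24h, 62 and 22 at 14d, and 228 and 662 at 21d. In RPKM it was at or below 0.0140 in the first 6 libraries, at 0.273 and 0.264 at 14d and at 2.58 and 3.28 at 21d, so both late stages lay above all earlier libraries and did not overlap each other. Between 14d and 21d, which share their index set, it rose by a log2 fold change of 3.37 with an SE of 0.39 (10.4-fold, adjusted p = 0.00205). Against 24h cells the rise at 14d was 24.3-fold as a ratio of scaled counts, with a 95% counting interval of 10.0 to 76.7 (adjusted p = 0.00142). Against the 1 read of subconfluent cells the ratio at 21d was 1126, with a counting interval of 201.5 to 44510 (adjusted p = 1.93e-05). The 24h libraries, with 5 reads together, did not pass the test against confluent cells (adjusted p = 0.531).

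Cebpb, the early C/EBP factor of adipogenesis that also acts in osteoblasts and in stress responses, had the highest RPKM of the 10 in every library. It stood at 30.3 and 45.3 RPKM in subconfluent A and B, 42.0 and 40.2 in confluent, 72.4 and 41.7 at 24h, 54.8 and 65.8 at 14d, and 116.1 and 105.8 at 21d. Both 21d libraries lay above the other 8, while the ranges of the 4 earlier stages overlapped with their neighbours in the order of means. From subconfluent cells to 21d Cebpb rose by 1.67 on the log2 scale with an SE of 0.31 (3.19-fold, adjusted p = 0.00314). The step from 14d to 21d was 0.80 with an SE of 0.30 and missed the threshold (adjusted p = 0.155), although the replicates did not overlap. It passed, under 2-fold, without the 24h samples (adjusted p = 0.0234), without 24h A or 24h B alone (0.0244 and 0.0254) and with 14d and 21d fitted alone (0.00876). Exons of Cebpb share bases with Tmem189 on the opposite strand, and strand use in the counting is not given in the sources used here. Tmem189 had a log2 fold change of -0.30 between the same stages (adjusted p = 0.0760).

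Cebpa, whose product sustains the mature adipocyte state together with PPARγ, was low to moderate and higher in differentiated cells. Its level was 2.67 and 3.0 RPKM in subconfluent A and B, 4.43 and 5.36 in confluent, 5.38 and 5.74 at 24h, 6.31 and 6.66 at 14d, and 6.06 and 6.55 at 21d. The subconfluent libraries were the lowest pair, and the ranges of 14d and 21d overlapped. At 21d Cebpa was 2.42-fold above subconfluent cells (log2 1.27, SE 0.13, adjusted p = 0.000174). Before the change of medium confluent cells already exceeded subconfluent cells by 0.77 (SE 0.13, adjusted p = 0.0254). That earlier step lost its support without subconfluent A or B (adjusted p = 0.199 and 0.114), without confluent B (0.169) or without any 14d or 21d library (0.0656 to 0.0689).

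Cebpd, the other early factor, was well expressed at every stage. It measured 24.5 and 29.99 RPKM in subconfluent A and B, 25.6 and 25.0 in confluent, 40.5 and 33.9 at 24h, 31.1 and 35.7 at 14d, and 37.0 and 34.5 at 21d. In RPKM the 6 libraries in differentiation medium were above the 4 in growth medium, and stages in differentiation medium that were neighbours in the order of means overlapped. With counts scaled to library size (CPM) subconfluent B, at 24.48, was above 14d A, at 24.11. The increase from subconfluent cells to 21d was 0.51 on the log2 scale (SE 0.15, adjusted p = 0.0273), below 2-fold. It missed the threshold when any library of these 2 stages was left out, with adjusted p = 0.205, 0.0502, 0.119 and 0.0737 without subconfluent A, subconfluent B, 21d A and 21d B. Exons of Cebpd share bases with Spidr on the opposite strand, which had a log2 fold change of -0.07 between the same stages. The length the authors used for RPKM was 907 bases for Cebpb and 1178 for Cebpd, against 1504 and 3746 exonic bases in GENCODE vM21, and the levels of these genes relative to others depend on that length.

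Within the sum of the 3 C/EBP genes the share of Cebpb was highest at 21d. Cebpb made up 72.9% and 72.1% of the summed RPKM in 21d A and B, against 51.3% to 61.2% in the other 8 libraries. The share of Cebpd was 23.3% and 23.5% at 21d and 33.0% to 42.7% before, and Cebpa contributed 3.80% to 7.59% in every library. The shares are a description on the RPKM scale with no test, and other gene lengths would move all of them.

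**Figure D2:**
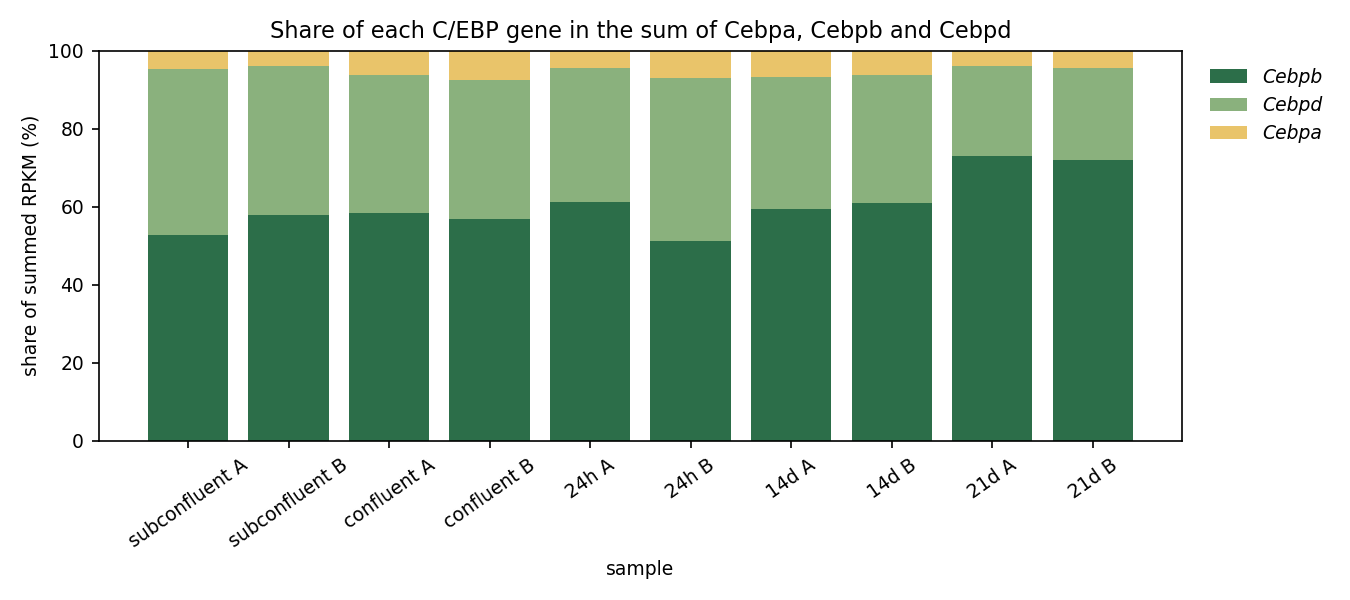
Stacked bars give the share (vertical axis, percent) of Cebpb, Cebpd and Cebpa in the sum of their RPKM values in each of the 10 libraries (horizontal axis). Cebpb holds 72.1% to 72.9% in the 2 libraries at 21d and 51.3% to 61.2% in the other 8.

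Pparg, the nuclear receptor required for fat cell formation, was barely detected. Its counts were 29 and 12 in subconfluent A and B, 5 and 8 in confluent, 3 and 6 at 24h, 10 and 3 at 14d, and 3 and 8 at 21d, which corresponds to 0.143 and 0.196 RPKM in subconfluent cells and 0.0179 to 0.0745 RPKM afterwards. Both subconfluent libraries were above the other 8, and the ranges of confluent, 14d and 21d overlapped. Pparg was called lower at 21d than in subconfluent cells, where the log2 fold change was -1.67 (SE 0.54, 3.19-fold lower, adjusted p = 0.0346), on 11 reads against 41. The call was lost without filtering of low counts (adjusted p = 0.0624), with DESeq2 (0.121), and without any library of subconfluent, 14d or 21d cells (0.0591 to 0.144). At 0.0470 RPKM, the mean of 21d, Pparg ranked above 17.8% of the 26170 genes detected at that stage.

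Zfp423, a zinc finger protein that marks committed preadipocytes, was moderately expressed and higher after the subconfluent stage. Its level was 4.30 and 3.98 RPKM in subconfluent A and B, 6.28 and 5.98 in confluent, 6.46 and 7.16 at 24h, 6.67 and 6.40 at 14d, and 7.69 and 7.20 at 21d. In RPKM the subconfluent pair was lowest, the 21d pair highest, and 24h and 14d overlapped. In CPM 24h B, at 27.31, was above 21d B, at 27.03. From subconfluent cells to 21d the change was 0.96 on the log2 scale with an SE of 0.08 (1.95-fold, adjusted p = 6.85e-05), just under the 2-fold limit, and it was over that limit without subconfluent A (1.0003), without 21d B (1.0001), with the stricter count filter (1.02) and with upper-quartile scaling (1.09). The step at confluence was 0.54 (SE 0.08, adjusted p = 0.0155) and lost its support without any of the 4 libraries compared (adjusted p = 0.0894 to 0.161) or either 14d library (0.0615 and 0.0608).

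Among the lipid genes, Plin2, which coats lipid droplets in most cell types, was well expressed and higher at the last stage. It stood at 13.2 and 12.9 RPKM in subconfluent A and B, 13.9 and 14.1 in confluent, 14.5 and 12.5 at 24h, 12.3 and 11.0 at 14d, and 20.6 and 19.1 at 21d. The 21d pair lay above the other 8 libraries, which spanned 11.0 to 14.5. Plin2 rose from 14d to 21d by 0.70 on the log2 scale (SE 0.11, 1.62-fold, adjusted p = 0.00946) and from subconfluent cells to 21d by 0.72 (SE 0.11, adjusted p = 0.00152), both under 2-fold. The step from 14d missed the threshold without 14d A, 14d B or 21d A (adjusted p = 0.0571, 0.104 and 0.0858).

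Fabp4, a fatty acid binding protein abundant in adipocytes, was low, with its highest level at 24h. Counts were 1 and 1 in subconfluent A and B, 1 and 7 in confluent, 50 and 53 at 24h, 12 and 1 at 14d, and 9 and 10 at 21d. The 24h libraries, at 0.929 and 1.06 RPKM, were above the other 8, in which Fabp4 did not exceed 0.406 RPKM, and the range of 14d overlapped those of confluent and 21d, which did not overlap each other. The fitted change at 24h against confluent was 3.63 (SE 0.72, adjusted p = 0.0351) on 103 against 8 reads, a ratio of 11.9 with a counting interval of 5.80 to 28.2. From 24h to 14d it fell by 2.63 on the log2 scale (SE 0.68, adjusted p = 0.0384). Both calls were lost when any subconfluent, confluent or 21d library was left out (adjusted p = 0.0577 to 0.207), and the fall was also lost without 24h A, 14d A or 14d B (0.0593, 0.0715 and 0.174). With 24h and confluent cells fitted alone the adjusted p was 0.213, a setting in which edgeR called 0 of 19562 genes, with 1824 at an unadjusted p under 0.05. At 21d Fabp4 was called higher than in subconfluent cells on 19 against 2 reads, a ratio of 12.0 with a counting interval of 2.90 to 106.4 (adjusted p = 0.0142), which was lost without subconfluent A (0.147) or 21d A (0.0635).

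Lpl and Cd36, the lipase that frees fatty acids from lipoproteins and the fatty acid translocase, were at or near the limit of detection. Lpl had 20 and 5 counts in subconfluent A and B, 5 and 8 in confluent, 7 and 6 at 24h, 6 and 4 at 14d, and 7 and 12 at 21d, between 0.00981 and 0.0294 RPKM. These ranges overlapped for 3 of the 4 neighbouring pairs of stages in the order of means, and no comparison passed, the F test over the 5 stages included (adjusted p = 0.263). At 21d against subconfluent cells its log2 fold change was 0.05 with an SE of 0.52, and the sign turned in some other settings. Cd36 had 0 counts in 9 libraries and 1 in 21d B, so no change could be measured, and with 3 counts as the limit that 0 allows its level was at most 0.0184 to 0.0671 CPM, counts scaled to library size, in these libraries.

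Across comparisons, the 5 calls among the 9 tested genes at 21d against subconfluent cells were Klf15, Fabp4, Cebpb and Cebpa, which were higher, and Pparg, which was lower. Of all 20808 genes tested, 27.6% were called there, 16.3% higher and 11.3% lower. Without the fold limit 8 of 9 passed, all but Lpl, where 50.7% of all genes did, and in the F test over the 5 stages 8 of 9 passed, where the background was 48.9%. Without 21d A these calls numbered 3 and the F test passed 4, and without 21d B the F test passed 5. In the steps between stages calls were few. From subconfluent to confluent edgeR called 0 of the 9 (background 1.43%), with 3 at an unadjusted p under 0.05, and DESeq2 also called 0. There Cebpa and Zfp423 passed under 2-fold (background 3.28%). From confluent to 24h Fabp4 was called (background 2.13%), and from 24h to 14d Klf15 and Fabp4 (background 5.98%), of which the call of Fabp4 was lost without the libraries given for it. From 14d to 21d Klf15 was called (background 3.97%), with Plin2 under 2-fold (background 9.72%), and from confluent to 14d again Klf15 (background 13.0%), with Cebpa, Cebpd and Zfp423 under 2-fold (background 32.1%). The comparisons share stages and are not independent of each other. Klf15, Fabp4 and Pparg passed the filter on low counts through only 4, 4 and 3 libraries, so a difference between stages was part of their selection. No excess over the background is read from these counts.

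**Figure D3:**
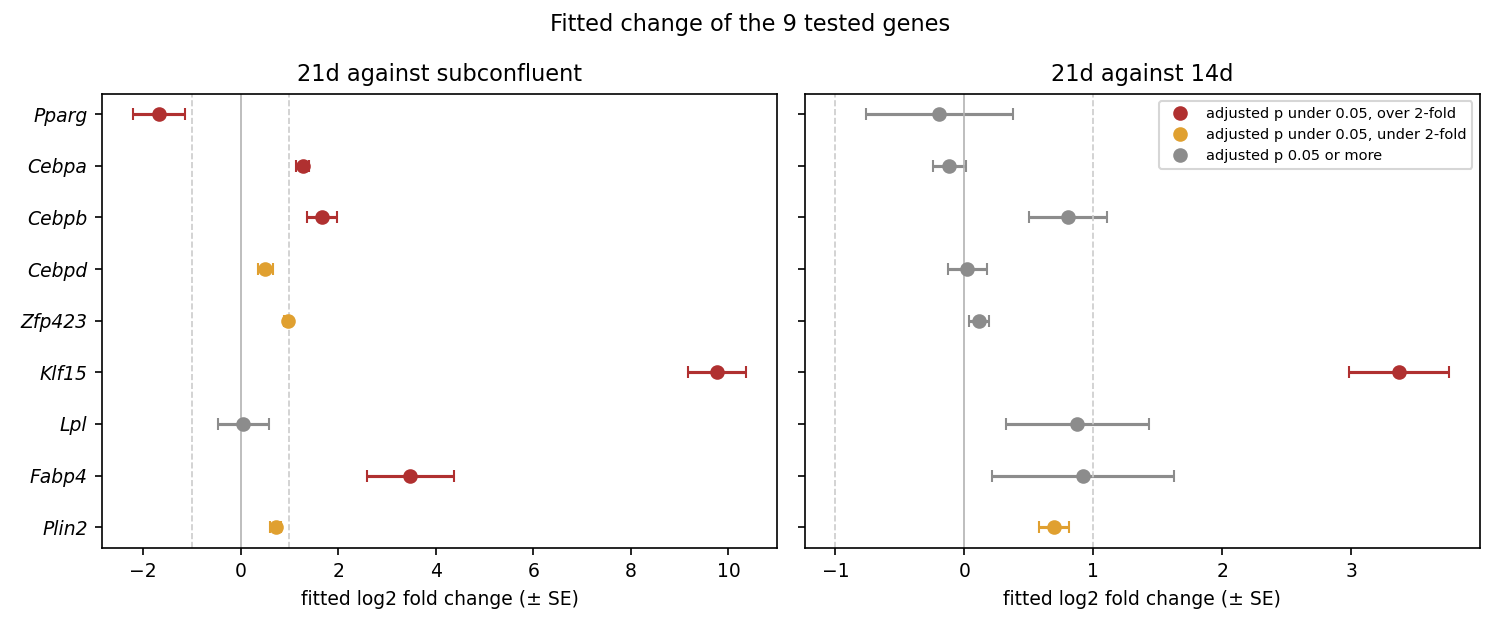
Fitted log2 fold changes (horizontal axis, points) with their SE (bars) for the 9 tested genes, at 21d against subconfluent cells (left) and at 21d against 14d (right). Red points were called, orange points passed the adjusted p under 2-fold, grey points did not pass, and dashed lines mark 2-fold; at 14d to 21d Klf15 stands at 3.37 and Plin2 at 0.70.

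Markers of the mature fat cell were low with 1 exception. Of 15 such genes, 14 stayed below 1 RPKM in every library and 12 below 0.1 RPKM, and their summed level without Car3 was 0.223 to 0.729 RPKM. Adipoq, the adipocyte hormone adiponectin, had at most 4 counts in a library, Lep, which encodes leptin, at most 3, and Plin1 and Cidec, droplet proteins of white fat cells, at most 1. The exception was Car3, a carbonic anhydrase also present in muscle, which went from 0.388 and 0.237 RPKM in subconfluent cells to 45.0 and 51.5 at 14d and back to 6.76 and 4.92 at 21d (log2 fold change from 14d -3.13, SE 0.25, adjusted p = 0.000605). Only 3 of the 15 were tested, of which Car3 and Gpd1 were called higher at 21d than in subconfluent cells (background 16.3%). Osteoblast markers ran far above these levels, with a summed RPKM of 7439 to 21587 over 10 genes, and of 389.3 to 5859 without the collagens Col1a1 and Col1a2. The lowest of them were Phex, at 0.0617 to 3.94 RPKM, and Dmp1, at 0.593 to 28.97 RPKM, so single osteoblast markers also stood below 1 RPKM in some libraries. Of the 10 osteoblast markers 7 were called higher at 21d than in subconfluent cells, where 16.3% of all genes were. They were led by Bglap (osteocalcin, log2 fold change 8.94), Ibsp (7.43) and Phex (5.03). By edgeR 0 were called lower (background 11.3%), with 0 lower at an unadjusted p under 0.05 and 0 by DESeq2. All 10 osteoblast markers were detected in every library. From 14d to 21d 2 of them were called higher and 2 lower (background 3.97% in either direction), with a median log2 fold change of -0.82. Their summed RPKM was 19859 to 21587 at 14d and 12460 to 13670 at 21d.

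**Figure D4:**
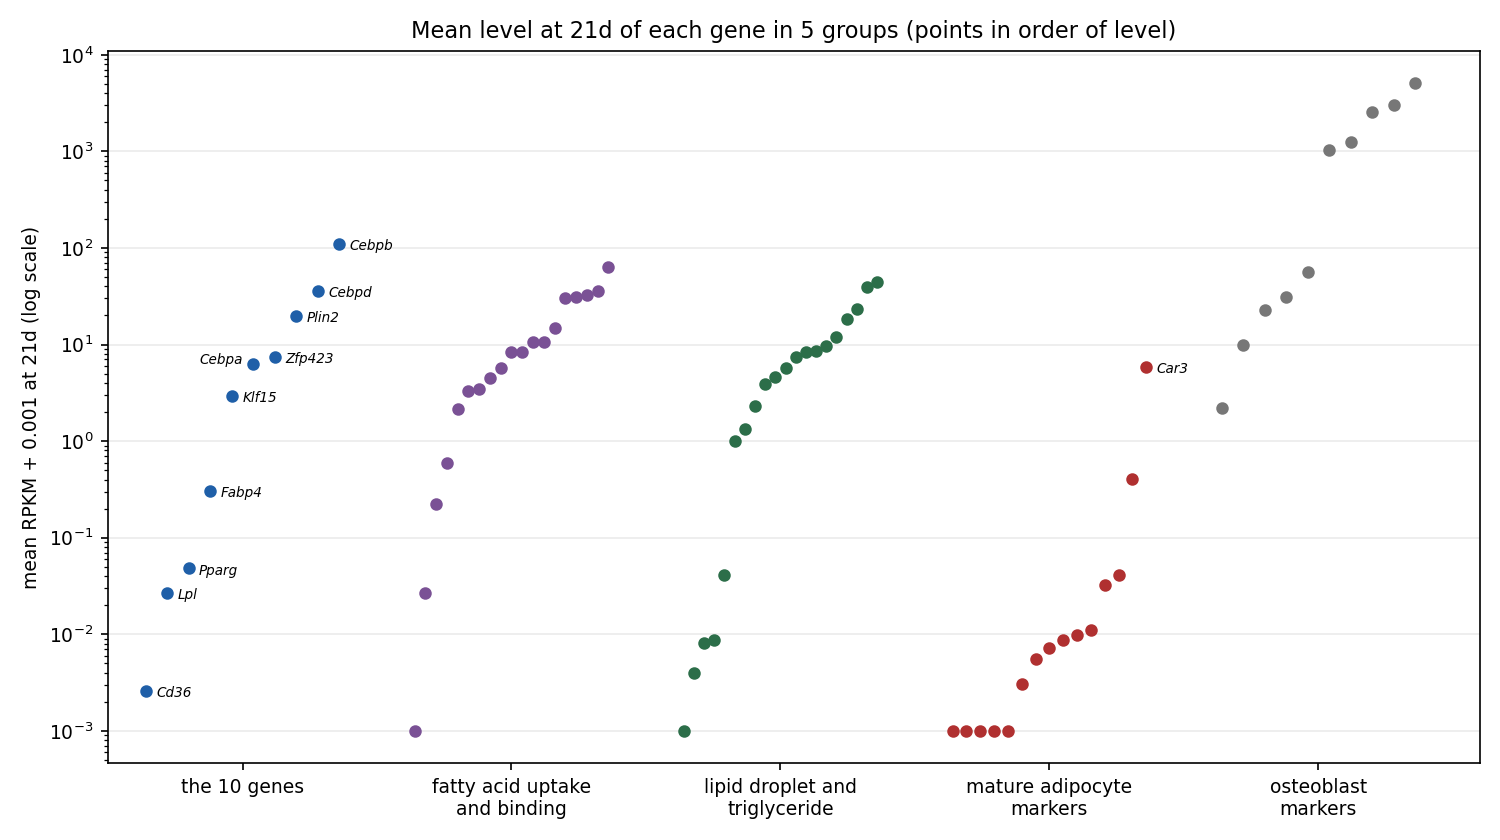
Mean RPKM at 21d (n = 2) plus 0.001 on a log scale (vertical axis) for the 10 genes and for 4 lists (horizontal axis), with the genes of a group ordered by level. Cebpb reaches 111.0 RPKM, Lpl and Pparg lie under 0.05, and the mature adipocyte markers other than Car3 lie under 1.

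Of adipogenic transcription factors outside the 10, 20 were listed and 17 were tested. At 21d against subconfluent cells 5 were called higher and 1 lower, where 16.3% of all genes were called higher and 11.3% lower, and the median log2 fold change was 0.06, beside 0.04 over all genes. Nr1h3, the lipid-sensing liver X receptor α, rose from 0.217 and 0.200 RPKM to 2.68 and 2.73 (log2 3.80, SE 0.22), and Zfp467, a zinc finger factor, by 3.46 (SE 0.25). Klf5, a pro-adipogenic Krüppel-like factor, fell to a ratio of 0.0727 with a counting interval of 0.0230 to 0.176, on 5 against 87 reads, a call lost without 21d A. Of 19 genes listed as brakes on adipogenesis 17 were tested, with 5 called higher, 3 lower (background 16.3% and 11.3%) and a median of 0.30. The list is a label, and whether each gene, Id2 included, acts as a brake in these cells was not tested. Id2, an inhibitor of basic helix-loop-helix factors, fell by 3.34 on the log2 scale, Klf2 rose by 2.88, and Ddit3, a C/EBP family member that forms dimers with C/EBPβ and blocks its usual sites, rose by 3.05. For Ddit3 the rise lay between 14d and 21d, from 19.6 and 16.5 RPKM to 157.9 and 145.4 (log2 2.995, SE 0.27, adjusted p = 0.000845), and Wnt5a, a Wnt ligand, also rose in that step (1.30), a call lost without 14d A or 14d B.

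Fatty acid uptake genes outside the 10 went in both directions. At 21d against subconfluent cells 12 of 18 tested were called (background 27.6%), 5 higher and 7 lower, with a median of -0.43. Slc27a1, a fatty acid transport protein, rose from 0.168 and 0.302 RPKM to 8.64 and 8.15 (log2 5.34, SE 0.30), and Vldlr, a lipoprotein receptor, rose by 3.95. Fabp5, the epidermal fatty acid binding protein, fell from 43.9 and 42.3 RPKM to 3.36 and 3.20 (log2 -3.60), so it was above Fabp4 in RPKM in every library. The 7 that fell from subconfluent cells to 21d included the acyl-CoA synthetases Acsl1, Acsl3, Acsl4 and Acsl5, which were named after their values were seen.

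Lipid droplet and triglyceride genes outside the 10 had 5 of 16 tested called higher at 21d than in subconfluent cells by edgeR and 0 lower (background 16.3% and 11.3%), with a median of 0.70. At an unadjusted p under 0.05, 1 was lower, and DESeq2 called 0 lower. Plin4, a perilipin abundant in white fat cells, had 11 and 1 counts in subconfluent A and B, 126 and 19 at 14d, and 327 and 741 at 21d, where it was called higher than in subconfluent cells (log2 6.91, SE 0.71, adjusted p = 0.000181). Its step from 14d to 21d was 3.14 (SE 0.56, adjusted p = 0.0142) and was lost without 14d B, 21d A or 21d B. G0s2, an inhibitor of the lipase encoded by Pnpla2, rose from 1.14 and 1.05 RPKM at 14d to 3.16 and 4.70 at 21d (log2 1.78, SE 0.40, adjusted p = 0.0353), a call lost in 10 of 22 alternative settings. Lpin1, a phosphatidate phosphatase, rose by 1.47 from subconfluent cells. Plin1, Plin5, Cidea and Cidec of this list did not pass the filter.

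Genes known to respond to PPAR receptors had 5 of 13 tested called higher and 1 lower at 21d than in subconfluent cells (background 16.3% and 11.3%), with a median of 0.58. Angptl4, an inhibitor of lipoprotein lipase, was higher by a ratio of 10.4 with a counting interval of 5.36 to 22.4. This call, on 82 against 10 reads and at most 0.227 RPKM in any library, was lost without subconfluent A or 21d B. The 1 called lower was Pdk4, named after its values were seen (log2 -2.07, SE 0.19, adjusted p = 0.000106). Pdk4 had the highest level of the list, at 10.3 to 51.4 RPKM over the libraries. Acot2, a mitochondrial acyl-CoA thioesterase, rose by 1.34 on the log2 scale from 14d to 21d. These genes are also regulated by factors other than PPARγ, and their part in the values of the 10 genes was not tested.

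Because Klf15 and Cebpd are known glucocorticoid targets, 12 glucocorticoid-responsive genes were followed beside them. At 24h against confluent cells edgeR called 9 of 12 higher and 0 lower, with a median log2 fold change of 2.45, where 1.76% of all genes were called higher. At 21d against subconfluent cells it called 10 of 12 higher and 0 lower (background 16.3% and 11.3%), with a median of 3.08. In both comparisons 0 were lower at an unadjusted p under 0.05, and DESeq2 called 0 lower. The list was chosen with earlier results of these data known, and no excess over the background is read from these counts. The 3 largest called changes at 21d were in Lcn2, at least 107.5-fold on 255 against 0 reads, Zbtb16, by a ratio of 645.1 with a counting interval of 115.3 to 25530, and Sult1a1, by 8.78 on the log2 scale (SE 0.66). Lcn2 and Zbtb16 passed the filter on low counts only through their higher stages, so a difference between stages was part of their selection. Tsc22d3 and Fkbp5, standard glucocorticoid targets named after their values were seen, rose at 24h. Tsc22d3 (glucocorticoid-induced leucine zipper) went from 10.0 and 9.47 RPKM in confluent cells to 129.5 and 112.6 at 24h and 277.8 and 277.9 at 21d, and Fkbp5 from 7.68 and 7.02 to 25.7 and 27.3. The 24h count was 6 without confluent B and 0 with 24h and confluent cells fitted alone. Mt1 and Mt2 in this list, metallothioneins, also respond to metals. In 6 of the 10 libraries, the subconfluent, confluent and 24h ones, Klf15 had at most 3 reads. The 3 genes of the list not called at 24h were Dusp1, Nfkbia, which passed under 2-fold, and Zbtb16, which had 0 reads in confluent cells, 2 at 24h and 283 at 14d, where it was called higher than at 24h (adjusted p = 0.00226). Cebpd stood at 25.6 and 25.0 RPKM in confluent A and B and at 40.5 and 33.9 at 24h, a step that did not pass the adjusted p. Whether the timing of Klf15 or Cebpd differs from that of these genes was not tested. Whether a glucocorticoid acted on any of them was not tested either.

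**Figure D5:**
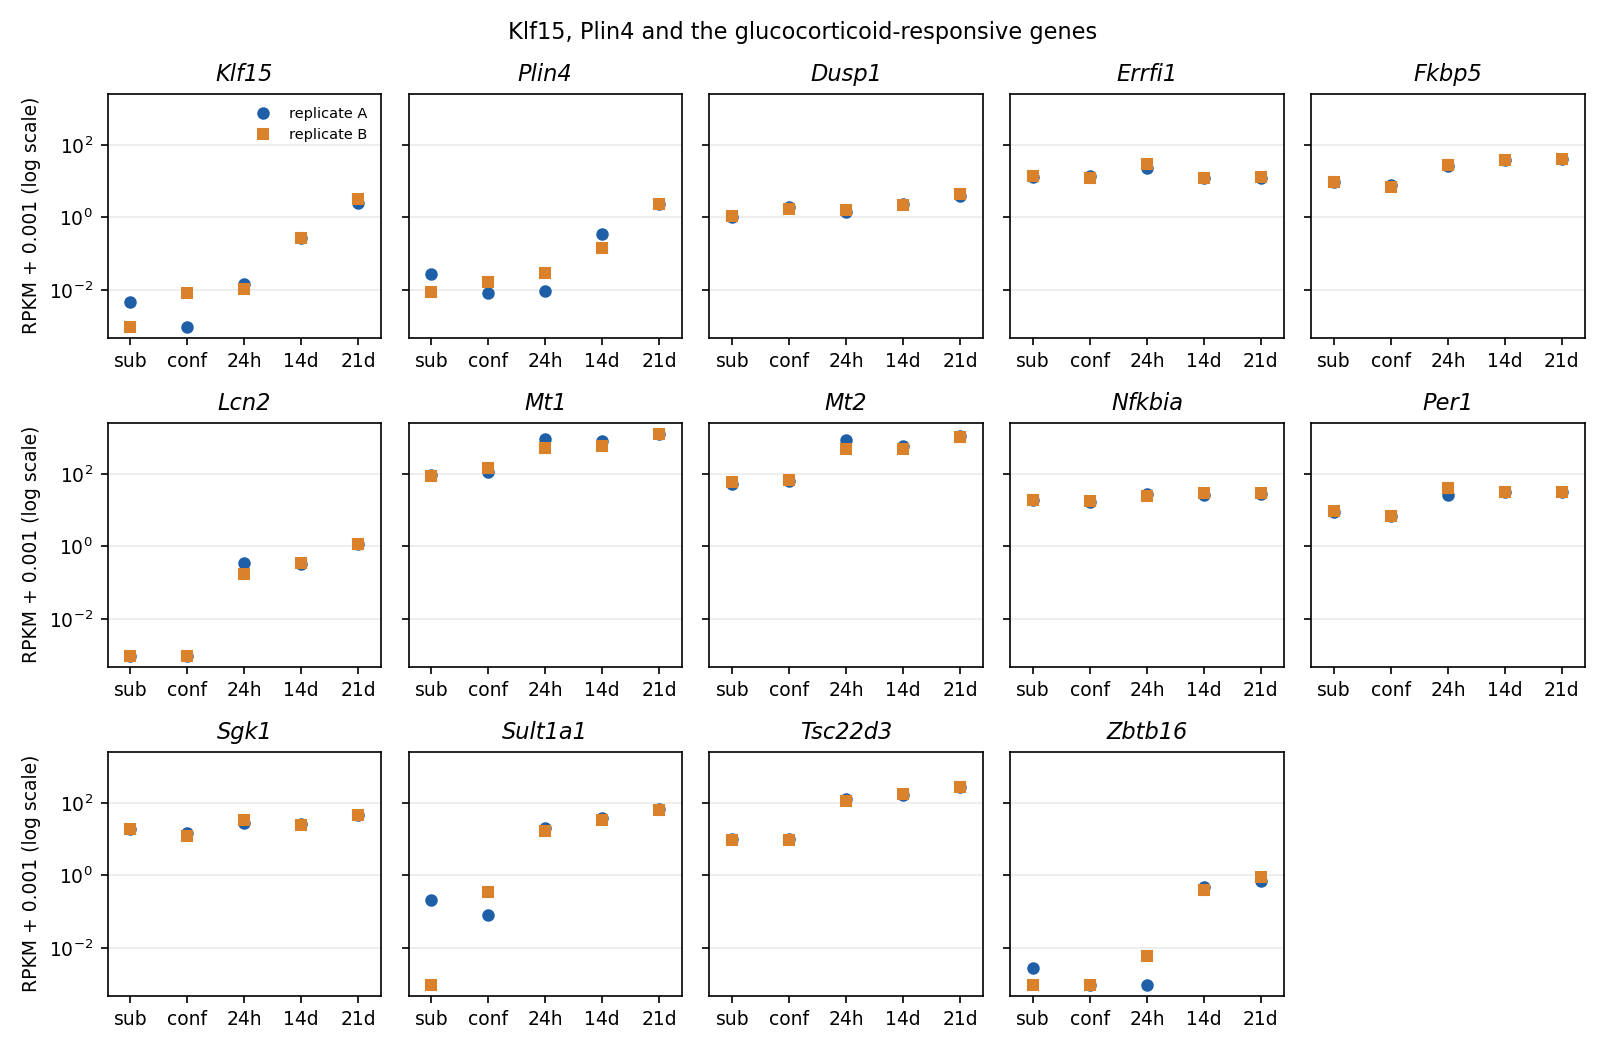
RPKM plus 0.001 on a log scale (vertical axis) of Klf15, the perilipin Plin4 and the 12 glucocorticoid-responsive genes at the 5 stages (horizontal axis; sub, subconfluent, conf, confluent), with circles for replicate A and squares for replicate B. Klf15 stays at or below 0.0140 RPKM until 24h and stands at 0.264 and 0.273 at 14d, Zbtb16 stays at or below 0.00497 RPKM until 24h and stands at 0.387 and 0.476 at 14d, and Tsc22d3, Fkbp5, Per1 and Sult1a1 are among the 9 genes called higher at 24h.

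Markers of other cell types were examined in the same libraries. All 10 endothelial markers stayed at or below 0.387 RPKM, with a sum of 0.0901 to 0.155 in subconfluent cells and 0.419 to 0.575 at 21d. Of these 4 were tested, and Vwf and Tek were called higher at 21d than in subconfluent cells, where 16.3% of all genes were. Of 12 macrophage markers 8 were tested. Ptprc and C1qb had 0 reads, Adgre1 and C1qa 1 read each, and Fcer1g and Spi1 were called higher at 21d than in subconfluent cells (background 16.3%). Other genes of the list, named after their values were seen, were present in every library. Lyz2 stood at 9.81 to 16.1 RPKM, Itgam at 5.00 to 9.86 and Csf1r at 1.83 to 3.19. Cd14 stood at 1.98 to 2.51 RPKM and Cd68 at 0.464 to 0.936. Tyrobp was high in the 3 libraries given above, and without it the macrophage sum was 20.8 to 34.1 RPKM. The calls of Spi1 and Tek were lost without either subconfluent library or without 21d B, that of Tek also without 21d A, and that of Fcer1g without subconfluent A. The part of other cells in the values of the 10 genes was not tested.

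Among 7856 protein-coding genes with a mean of at least 5 RPKM, those with the pattern most like each gene over the 10 libraries were listed by Pearson's r of log2 CPM. For Klf15 they were Xbp1 (r = 0.994, Spearman's rho = 0.948), Serp1 (0.991, 0.985) and H2-D1 (0.991, 0.845). For Cebpb they were Saraf (0.978, 0.939), Slc29a1 (0.974, 0.988) and Bst2 (0.965, 0.927), and for Plin2 Ddit3 (0.980, 0.758), Slc3a2 (0.974, 0.721) and Spcs2 (0.972, 0.746). For Cebpa they were Lrrc17, Ddit4 and Pth1r (r = 0.987 to 0.990), for Zfp423 Trafd1, Sh2b1 and Whrn (0.980 to 0.985), and for Cebpd Srek1ip1, Naxd and Zfp787 (0.949 to 0.976). For the sparsely counted genes the nearest were Cnksr3, Aebp1 and Axl for Pparg (0.950 to 0.977), Pgap2, Fam234a and Postn for Fabp4 (0.915 to 0.949), and Gpbp1, Mdfic and Sypl for Lpl (0.872 to 0.878). The 10 points share libraries, stages and depth, and the values describe these libraries only.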

How the data were processed

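RNA of 10 MC3T3-E1 samples (5 stages, replicates A and B) was sequenced as 51-base paired-end reads. The deposited count table holds whole-number read counts per Ensembl gene, without normalization. The deposited RPKM values were computed by the authors as counts per kilobase of gene and per number of reads, where the total counts were 1.44 to 1.60 times that number, so RPKM was compared within this table only. The submitters' processing notes name FastQC, TopHat2 2.0.9, R 3.0.1 and mm10; the counting tool, its strand setting and its annotation are not given in the sources used here. The merged columns were used for 14d A and 21d B, sequenced in 2 lanes each.

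Symbols and coordinates came from GENCODE vM21 (39547 of 40620 identifiers), and start windows from RefSeq on GRCm38.p6. Counts of all 10 samples were tested in edgeR 4.0.16 under R 4.3.3: filterByExpr (minimum count 10, 20808 genes), TMM, a quasi-likelihood fit with 5 groups, 6 comparisons and an F test, with Benjamini-Hochberg adjustment over all genes. The procedure was tested on simulated data. Alternatives used DESeq2 1.42.0 and limma 3.58.1 among others. Where a stage held 10 or fewer reads, a ratio of scaled counts with a 95% counting interval is given, and against 0 reads a bound with 3 counts over the stage. Floors and intervals cover counting error only.

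Named genes are the 10 genes at every stage, from each list the 3 called genes with the largest change at 21d against subconfluent cells and the 2 at 21d against 14d, and the 3 genes most like each. The 10 genes and the lists were chosen with earlier results of these data known, and the lists are not independent evidence. Some listed genes, such as Lcn2, Zbtb16 and Plin4, passed the filter on low counts only through their higher stages. Nothing was left out of the 10 samples. Some genes that this rule names are not reported here.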

Additional observations from a re-analysis of the deposited data

How the results depend on the processing

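The 10 genes were recomputed with other size factors (those of DESeq2, upper-quartile, library size alone), DESeq2, a filter of 10 counts in every sample, none at all, the compared stages alone, no 24h samples, a replicate block, limma on log2(RPKM + 1) and log2(RPKM + 0.1), other fold limits, log2 library size as a covariate, summed lanes and each library left out; upper-quartile factors and the use of these settings on the glucocorticoid list were added after the data were seen. None of the changes with an adjusted p under 0.05 as reported turned its sign. Lpl at 21d against subconfluent cells, at 0.05, did not pass in any setting and turned to -0.11 with library size alone, -6e-04 and -0.005 with limma on log2(RPKM + 1) and log2(RPKM + 0.1), -0.022 with the library size covariate, -0.096 without subconfluent B and -0.14 without 21d A, a range of -0.14 to 0.26 when a library was left out. The rises of Klf15, and those of Cebpa, Cebpb, Zfp423 and Plin2 at 21d against subconfluent cells, had an adjusted p under 0.05 in every setting where they were tested. Called genes numbered 1 at 24h against confluent cells as reported and 0 with DESeq2, with at least 10 counts in every sample, with the compared stages alone, with the replicate block, with limma on log2(RPKM + 1) and with the library size covariate. For 14d against 24h they numbered 2, against 1 with the compared stages alone, with the replicate block and with the covariate, and 0 with at least 10 counts in every sample and with limma on log2(RPKM + 1). With at least 10 counts in every sample, which leaves 5 of the 10 genes, they were 0 at 21d against 14d, 0 at 14d against confluent, 3 at 21d against subconfluent, and 5 in the F test. With limma on log2(RPKM + 1), where low genes are compressed, they were 0 at 14d against confluent cells and 2 at 21d against subconfluent cells. Without the fold limit they were 2 at confluent against subconfluent, 2 at 21d against 14d, 4 at 14d against confluent and 8 at 21d against subconfluent, where more than 4-fold left 2. Leaving out a library gave 0 to 1 at 24h against confluent, 1 to 2 at 14d against 24h, 3 to 5 at 21d against subconfluent and 4 to 8 in the F test, with the cause not tested. Replicate letters did not pair the samples (correlations of A to B deviations between stages of -0.382 to 0.389 over 10 pairs of stages), and the replicate block also took the adjusted p of Pparg at 21d against subconfluent cells to 0.0564. Library size alone shifted the median of all genes by -0.13 at 24h against confluent, -0.23 at 14d against confluent and -0.16 at 21d against subconfluent, and upper-quartile factors shifted the last by 0.13. With library size alone the adjusted p of Zfp423 at 14d against confluent was 0.640. Glucocorticoid-responsive calls ranged from 6 to 9 at 24h when a library was left out and were 0 with 24h and confluent cells alone. Pparg, Fabp4, Lpl and Cd36 had at most 53 counts in a library, and their values are correspondingly imprecise.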
